A study of Mus musculus with 12 samples.

Results

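The nuclear genes that encode subunits of the mitochondrial respiratory chain and ATP synthase were followed in mouse liver. Members were all genes with a probe set of exactly 1 symbol in the platform annotation whose symbol named a subunit of complex I (Nduf), complex II (Sdh), complex III (Uqcr and Cyc1), complex IV (Cox4 to Cox8) or complex V (Atp5). For each gene the probe set with the highest mean over all arrays was used. This gave 81 of the 22180 genes on the array, of which 33 belonged to complex I, 4 to complex II, 9 to complex III, 17 to complex IV and 18 to complex V, and 2 of them (Uqcrh-ps1 and Atp5c1-ps) are pseudogenes. Ndufa4 is counted in complex I by its symbol, although its protein is now assigned to complex IV. Ndufab1, the acyl carrier subunit of complex I, was not matched by the symbol rule. It is not among the 33 and was kept in the list of complex I assembly factors instead. A further 10 probe sets for such subunits carried several symbols and were not used here.

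Livers came from male mice, aged 8 weeks at the start, that were then fed for 9 weeks. The 4 groups were Lats2-CKO mice fed high-cholesterol Paigen chow, containing 1.25% cholesterol (Lats2-CKO HCD), wild-type mice on that diet (WT HCD), Lats2-CKO mice on normal chow without cholesterol (Lats2-CKO ND) and wild-type mice on the same chow (WT ND). Each group had 3 biological replicates by the labels, with 1 single-colour Affymetrix array each, so that 12 arrays were compared. Lats2 is a serine/threonine kinase of the Hippo cascade. The labels also describe the line as a Lats2 knockout, and neither the deleted exons nor a Cre driver or its cell type is given in the sources used here.

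Electrons from NADH enter the respiratory chain at complex I and those from succinate at complex II, pass through coenzyme Q to complex III and through cytochrome c to complex IV, where oxygen is reduced. Complexes I, III and IV pump protons across the inner mitochondrial membrane, and complex V, the ATP synthase, uses the returning protons to make ATP. Most subunits are encoded in the nucleus and imported, whereas a small core set is encoded by mitochondrial DNA, so that the complexes are assembled from the products of both genomes. Hepatocytes are rich in mitochondria.

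Values were log2 expression per probe set, so a difference of 1 is a doubling. Medians of the arrays fell into 2 sets, a higher one (3.481 to 3.495) and a lower one (3.423 to 3.434). The higher set held array 1 of both HCD groups and arrays 1 and 2 of both ND groups, so the sets were not balanced between the diets, and values within each set are given beside the main ones. Lats2 itself was at 4.62 to 4.99 in Lats2-CKO HCD livers and at 5.12 to 5.97 in WT HCD livers, and at 4.37 to 4.79 in Lats2-CKO ND livers and at 5.14 to 5.69 in WT ND livers. The genotypes did not overlap within either diet, although the difference over both diets (-0.72 ± 0.16) had a limma adjusted p of 0.486. The average of 8 hepatocyte markers was near even, with mean levels from -0.083 to 0.069 around each gene's median over the arrays. Single markers moved both ways, with diet changes from -0.53 to 0.31 over both genotypes. Of the 8, 2 had an unadjusted limma p under 0.05 (against 18% of all genes) and none was called. Tat, 1 of them, changed by -0.80 ± 0.17 with the diet in Lats2-CKO livers (limma adjusted p = 0.0786, and 0.0204 without WT ND array 3).

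Among these arrays 3 stood apart. WT ND array 3 was closest to a Lats2-CKO HCD array (r = 0.993 over genes) and reached at most r = 0.982 with its own group. That was the lowest such r, but by a small margin, as the Lats2-CKO ND arrays and WT HCD array 1 reached 0.985. Other arrays were closest to another group too. WT HCD array 1 was closest to WT ND array 3 (r = 0.986), and several arrays to the other genotype on their own diet. Lats2-CKO ND array 3 carried genes of other tissues, found after its values were seen. Star, which moves cholesterol into mitochondria for steroid synthesis, was at 10.08 there and at 3.19 to 3.71 on the other 11 arrays. Cyp11b1, an adrenal steroid hydroxylase, was at 10.25 against 2.60 to 3.03, and Th, tyrosine hydroxylase of the adrenal medulla, was at 7.40 against 2.47 to 2.76. All 8 adrenal cortex genes, all 6 adrenal medulla genes and all 6 brown fat genes that were looked up were highest on that array. The brown fat uncoupling protein Ucp1 was at 5.92 there and at 2.67 to 3.04 elsewhere. WT HCD array 2 had the highest mean level for markers of B cells and of macrophages. Its B cell markers averaged 1.92 above each gene's median over the arrays, against -0.21 to 0.30 on the other 11. The macrophage genes Marco and Adgre1 were at 8.49 and 10.22 there and at most at 4.44 and 7.89 elsewhere. Clec4f, Cd5l and Csf1r of that list were also highest there. Cd68, Vsig4 and Lyz2 were highest on WT HCD array 1 instead, at 9.02, 10.9 and 10.83 against 7.84, 10.45 and 9.69. The macrophage markers averaged 1.96 above each gene's median on WT HCD array 2 and 1.22 on WT HCD array 1.

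Lats2-CKO ND array 3 set the values of 1 member. Cox8b, the muscle and brown fat isoform of a complex IV subunit, was at 2.89, 2.80 and 2.75 in Lats2-CKO HCD livers and at 2.88, 2.77 and 2.86 in WT HCD livers. It was at 2.91, 2.99 and 5.58 in Lats2-CKO ND livers and at 3.04, 2.82 and 2.82 in WT ND livers. A single array was therefore high, and the 11 others lay between 2.75 and 3.04. The Cox8b difference between Lats2-CKO and WT livers on ND was 0.94 with all arrays and 0.06 without that array, and the diet difference in Lats2-CKO livers was -1.01 with all arrays and -0.14 without that array. In all, 4 of the 81 members had their highest value on that array. The part of that tissue RNA in the other members' values was not tested, and results that rest on either array 3 are given with and without it. As WT ND array 3 was close to an HCD array, leaving it out favours diet differences, and diet calls made without it are a description only.

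**Figure D1:**
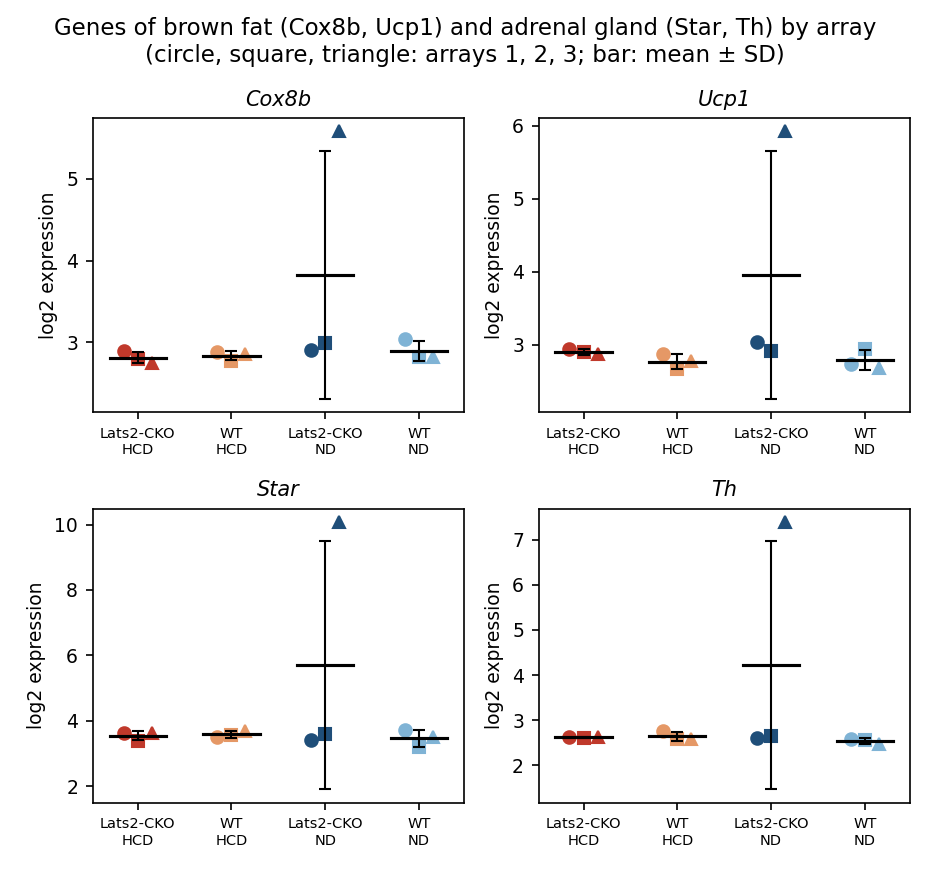
Log2 expression on each array for Cox8b, a member of complex IV, and for Ucp1, Star and Th, with the groups along the x axis, a symbol for each array and the mean ± SD of 3 arrays as bars. In all 4 panels Lats2-CKO ND array 3 lies far above the other 11 arrays, at 5.58 for Cox8b, 5.92 for Ucp1, 10.08 for Star and 7.40 for Th.

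Only 1 subunit gene passed the threshold for diet, and it was lower on the HCD. Ndufa2, an accessory subunit of the matrix arm of complex I, was at 7.02, 6.94 and 7.18 in Lats2-CKO HCD livers and at 6.75, 7.08 and 7.09 in WT HCD livers. It was at 7.61, 7.67 and 7.68 in Lats2-CKO ND livers and at 7.49, 7.73 and 7.23 in WT ND livers. Every HCD array lay below every ND array, across both genotypes. Over both genotypes Ndufa2 fell by 0.56 ± 0.10 on the log2 scale (SE, limma, adjusted p = 0.036). Its change was -0.61 ± 0.14 in Lats2-CKO livers (adjusted p = 0.0878, limma) and -0.51 ± 0.14 in WT livers (adjusted p = 0.318, limma). The call was lost with the array set as a block (adjusted p = 0.0691, limma), with changes of -0.74 within the higher set and -0.38 in the lower one. It was also lost without any 1 of 9 arrays, namely any Lats2-CKO array of either diet, WT HCD array 2 or WT ND array 1 or 2 (limma adjusted p up to 0.0954). It held without WT HCD array 1 or 3 or WT ND array 3 (limma adjusted p = 0.0489, 0.0332 and 0.00364).

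Ndufa2 was thus 1 of 81 members called in this contrast, against 1.24% of all genes (limma, Benjamini-Hochberg). No member was called for diet within Lats2-CKO livers, where 0.271% of all genes were, nor within WT livers, where 0% were. At an unadjusted limma p under 0.05, the members past it for diet numbered 4 in Lats2-CKO livers (against 13.4% of all genes), 9 in WT livers (against 10.6%) and 10 over both genotypes (against 18%). The members' counts, which come to 4.94%, 11.1% and 12.3% of 81, lay below those shares in Lats2-CKO livers and over both genotypes and near it in WT livers. Without WT ND array 3 the WT count was 18 members (22.2%), of which 17 were lower, against 17.3% of all genes. Changes were small. Over both genotypes 60 of the 81 members lay within 0.2 of no change on the log2 scale, and 0 changed by more than 1.5-fold.

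The direction of the small diet differences was uneven between the genotypes. In WT livers 63 members were lower and 18 higher on the HCD, with a median of -0.15 against -0.021 over all genes. In Lats2-CKO livers 43 were lower and 38 higher, with a median of -0.013 against -0.016. The WT median was -0.16 when only the higher array set was used and -0.069 with the lower set, and it was -0.15 without WT ND array 3 and -0.13 without WT HCD array 2. The Lats2-CKO median was -0.011 and 0.034 within the sets and -0.054 without Lats2-CKO ND array 3, so it had no settled sign. The median of the difference between the diet changes (interaction) was 0.13 over the members and 0.004 over all genes. No member passed the interaction test, which 0.00451% of all genes did. At an unadjusted limma p under 0.05, 7 members did, all with a positive sign, against 5.62% of all genes.

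By complex, the WT diet medians were -0.12 for complex I, -0.20 for complex II, -0.16 for complex III, -0.084 for complex IV and -0.16 for complex V. For complex V, 17 of its 18 members were lower on the HCD in WT livers. All 5 complexes were thus on the lower side in WT livers, although the complex III median was 0.13 within the lower array set. In Lats2-CKO livers the medians were -0.019 for complex I, 0.040 for complex II, -0.10 for complex III, 0.016 for complex IV and 0.013 for complex V. Without Lats2-CKO ND array 3 those of complexes II and IV changed sign, to -0.10 and -0.009. In bulk tissue, fewer hepatocytes and less RNA per hepatocyte cannot be told apart. Macrophage and Kupffer cell markers differed with the diet, as all 8 were higher over both genotypes and 2 of them (Clec4f and Cd5l) were called (against 1.24% of all genes). Both calls were lost with the array set as a block (limma adjusted p = 0.067 and 0.0773), and with 1 array left out at a time they were kept in 3 and 2 of 12 cases. Their mean level around each gene's median was -0.18 to 0.34 in Lats2-CKO HCD livers, 0.19 to 1.96 in WT HCD livers, -1.01 to -0.70 in Lats2-CKO ND livers and -0.33 to 0.12 in WT ND livers. Their part in the subunit values was not tested.

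**Figure D2:**
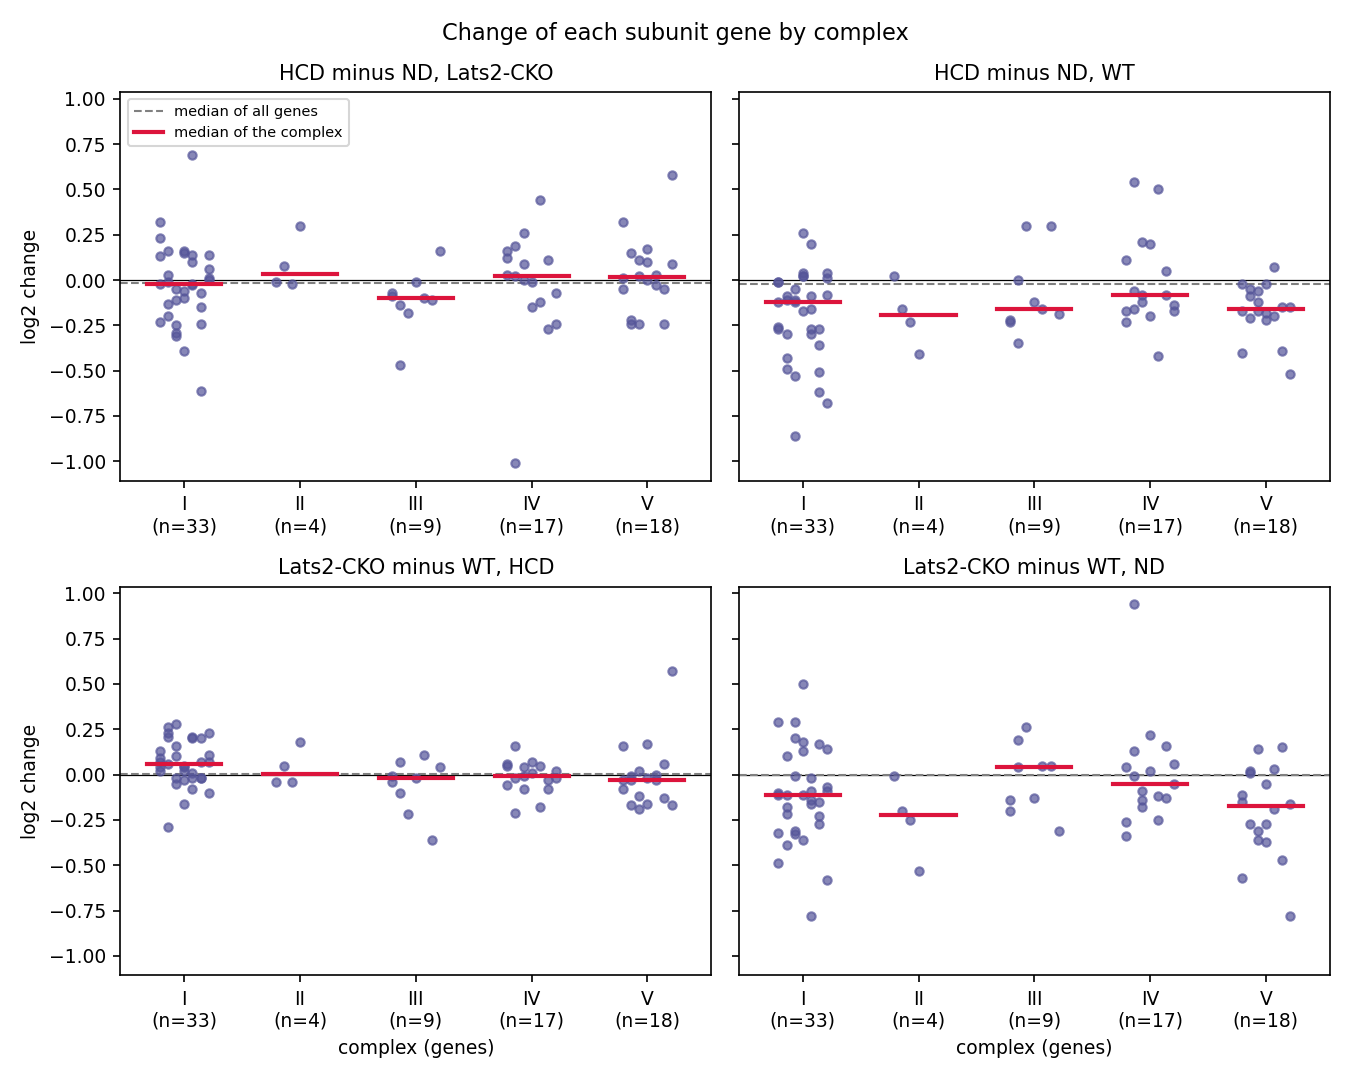
Log2 change of each subunit gene (1 point per gene, y axis) by complex (x axis, with the number of genes), for the HCD against the ND within each genotype and for Lats2-CKO against WT within each diet. Red bars are medians of a complex and the dashed line is the median of all genes; the WT diet medians run from -0.20 to -0.084, while those for Lats2-CKO against WT on HCD lie between -0.029 and 0.058.

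Groups that did not overlap were counted as a description. In WT livers every HCD array lay below every ND array for 15 members (against 8.81% of all genes) and above for 0 (against 4.97% of all genes). In Lats2-CKO livers 3 members lay below (against 10.5% of all genes) and 3 above (against 8.98% of all genes). The 15 in WT livers make up 18.5% of the members, and without WT ND array 3 41 members (against 21.6% of all genes) lay below. Complex I supplied the WT members with the smallest p. Ndufa3, an accessory subunit, was at 10.01, 9.62 and 9.72 in WT HCD livers and at 10.66, 10.29 and 10.42 in WT ND livers. All its HCD arrays were lower, and the change was -0.68 ± 0.25 (limma adjusted p = 0.395). Ndufc1, of the membrane arm, was at 6.14, 6.07 and 6.23 in WT HCD livers and at 6.73, 6.43 and 6.58 in WT ND livers, a change of -0.43 ± 0.15 (limma adjusted p = 0.367). Ndufs8, a core iron-sulfur subunit, changed by -0.49 ± 0.18 in WT livers (limma adjusted p = 0.376), with -0.94 in the higher and -0.13 in the lower array set.

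Further members passed the threshold under settings without WT ND array 3 and, for Cox7b, also with array weights. That array was close to an HCD array, so leaving it out favours diet differences, and calls made without it are no independent support. Without WT HCD array 2 alone or Lats2-CKO ND array 3 alone, no member was called over both genotypes. Ndufb7, an accessory subunit of the membrane arm of complex I, was at 6.72, 6.28 and 6.53 in Lats2-CKO HCD livers and at 6.31, 6.42 and 6.18 in WT HCD livers. It was at 6.75, 6.88 and 6.34 in Lats2-CKO ND livers and at 7.16, 7.21 and 6.40 in WT ND livers. Both arrays 3 of the ND groups lay among the HCD values. The diet change over both genotypes was -0.38 ± 0.15 with all arrays (limma adjusted p = 0.221), -0.51 ± 0.12 without WT ND array 3 (adjusted p = 0.0275) and -0.59 ± 0.10 without both (adjusted p = 0.0102). In WT livers alone it was -0.62 ± 0.22 with all arrays (limma adjusted p = 0.369) and -0.88 ± 0.17 without WT ND array 3 (adjusted p = 0.033). Within the array sets the WT change was -0.87 and -0.10.

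Cox7b, a nuclear subunit of complex IV, had the largest positive diet change over both genotypes. It was at 11.33, 11.38 and 11.24 in Lats2-CKO HCD livers and at 11.14, 11.70 and 11.66 in WT HCD livers, against 10.98, 10.53 and 11.13 in Lats2-CKO ND livers and 10.82, 10.80 and 11.39 in WT ND livers. The Lats2-CKO groups did not overlap, while WT ND array 3 lay above WT HCD array 1. Over both genotypes the change was 0.47 ± 0.15 (limma adjusted p = 0.13), 0.56 ± 0.13 without WT ND array 3 (adjusted p = 0.0324) and 0.63 ± 0.13 without both arrays 3 (adjusted p = 0.0252). With array weights it was 0.54 ± 0.12 (limma adjusted p = 0.0311), and a second probe set gave 0.06. Uqcr11, a small subunit of complex III, was at 7.47, 6.89 and 7.25 in Lats2-CKO HCD livers and at 6.82, 7.41 and 7.18 in WT HCD livers, against 7.87, 7.91 and 7.25 in Lats2-CKO ND livers and 7.64, 7.82 and 7.0 in WT ND livers. Its diet change over both genotypes was -0.41 ± 0.18 (limma adjusted p = 0.263) and -0.64 ± 0.14 without both arrays 3 (adjusted p = 0.03). With the array set as a block and no WT ND array 3, Ndufa8, an accessory subunit of complex I, changed by -0.51 over both genotypes (limma adjusted p = 0.0385), and Atp5l, a membrane subunit of ATP synthase, by -0.98 in WT livers (adjusted p = 0.0449).

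Without WT ND array 3, alone or with Lats2-CKO ND array 3, more of all genes were called too. Over both genotypes 274 genes were called with all arrays, 301 without WT HCD array 3, and 6 to 137 without any 1 of the 10 others, with 10 of them without Lats2-CKO ND array 3. Without WT ND array 3 the diet calls were 2.11% of all genes in Lats2-CKO livers, 2.33% in WT livers and 7.24% over both genotypes. The members called then numbered 1, 2 and 3 of 81, so their share stayed near or below those of all genes. Without both arrays 3 the shares of all genes were 1.52%, 2.1% and 7.06%, and the members called numbered 0, 1 and 4.

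**Figure D3:**
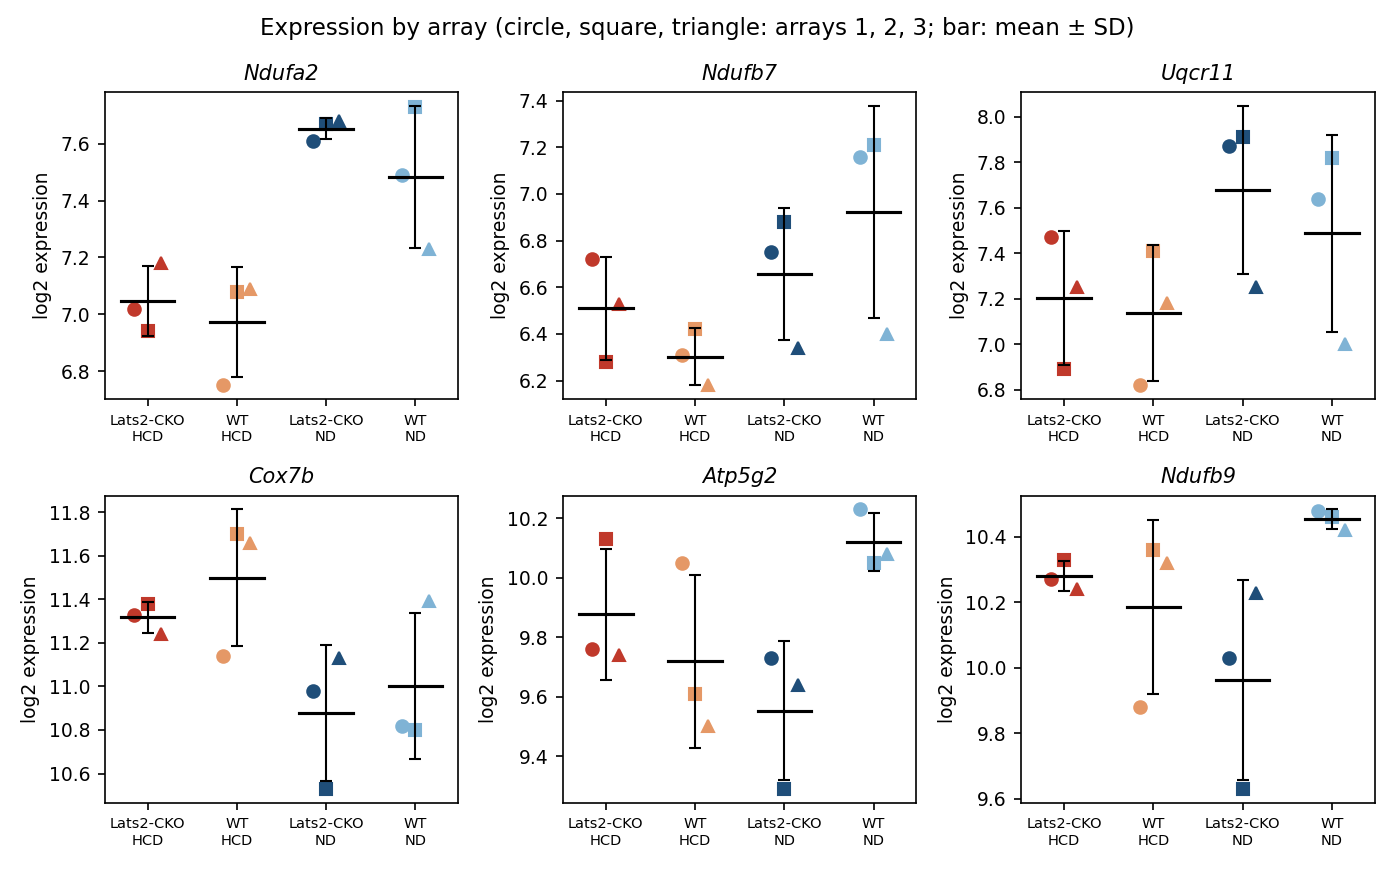
Log2 expression (y axis) of Ndufa2, Ndufb7, Uqcr11, Cox7b, Atp5g2 and Ndufb9 on each array, with the 4 groups along the x axis, circles, squares and triangles for arrays 1, 2 and 3, and the mean ± SD of 3 arrays as bars. For Ndufa2 the 6 HCD arrays (6.75 to 7.18) lie below the 6 ND arrays (7.23 to 7.73), and for Atp5g2 and Ndufb9 the Lats2-CKO ND arrays lie below the WT ND arrays.

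Diet changes in the 2 genotypes, which share no arrays, were set side by side gene by gene. Across the 81 members the Pearson r was 0.096 and 45 had the same sign. Across all genes r was 0.507, and the share of all genes with the same sign was not counted. Changes in Lats2-CKO livers ran from -1.01 to 0.69 over the members and from -5.78 to 5.2 over all genes. A wider range can raise r, so the 2 r values are not directly comparable. Without both arrays 3, r was 0.3 across the members and 0.573 across all genes. These are correlations across genes of the same livers, which are not independent replicates, and are given as a description. Ndufa2 and Cox7b lay on the same side in both genotypes. Ndufv3, an accessory subunit of the NADH-oxidising module of complex I, changed by 0.69 ± 0.23 in Lats2-CKO livers (limma adjusted p = 0.221) and by -0.30 in WT livers. Atp5g1, one of the 3 genes for the membrane ring subunit c of ATP synthase, changed by 0.58 ± 0.31 in Lats2-CKO livers (limma adjusted p = 0.463) and by -0.15 in WT livers.

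**Figure D4:**
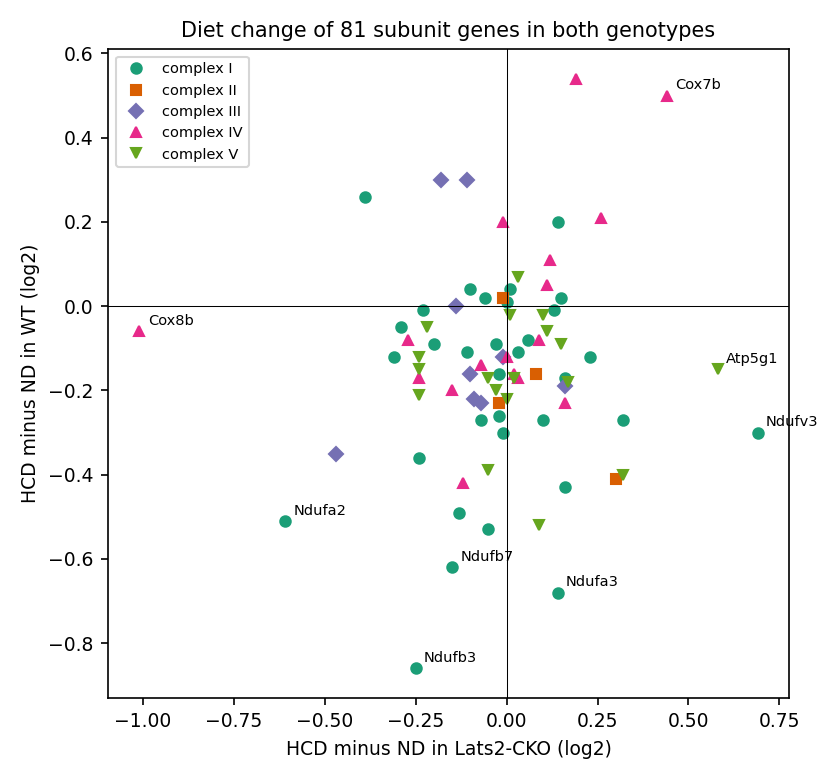
HCD minus ND difference (log2) of each of the 81 subunit genes in Lats2-CKO livers (x axis) and in WT livers (y axis), with the symbol showing the complex. Most points lie below 0 on the y axis (63 of 81) but are split on the x axis (43 below and 38 above); Ndufa2 is low and Cox7b high on both axes.

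On the HCD the genotypes were close. No member was called for Lats2-CKO against WT, where 0% of all genes were (limma, Benjamini-Hochberg), and 0 members had an unadjusted limma p under 0.05, against 2.93% of all genes. The median was 0.006 over the members and 0.006 over all genes, and 68 of 81 members lay within 0.2 of no difference. Only 1 member lay above without overlap (against 4.07% of all genes) and 0 lay below (against 3.37% of all genes). Atp5g1 had the widest gap in means, at 5.27, 4.07 and 4.82 in Lats2-CKO HCD livers and at 3.94, 4.27 and 4.25 in WT HCD livers, with a difference of 0.57 ± 0.31 (limma adjusted p = 1). The groups overlapped, as Lats2-CKO HCD array 2 was below 2 of the WT arrays.

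On the ND, 55 of 81 members were lower in Lats2-CKO than in WT livers and 26 were higher, with a median of -0.11 against 0 over all genes. It was -0.11 within each array set, -0.14 without WT ND array 3 and -0.088 without Lats2-CKO ND array 3. On the ND the lower set held only Lats2-CKO ND array 3 and WT ND array 3, both among the arrays that stood apart, so its value rests on a single pair. No member was called, and 0.0135% of all genes were (limma, Benjamini-Hochberg). At an unadjusted limma p under 0.05, 14 members were lower and 0 higher, which is 17.3% of the members against 8.99% of all genes. Lats2-CKO arrays all lay below the WT arrays for 13 members (against 7.36% of all genes) and above for 1 (against 5.96% of all genes). Without WT ND array 3 they lay below for 27 (against 14.8% of all genes) and above for 2 (against 11.5%). Markers of other cells differed beside these counts. All 8 macrophage and Kupffer cell markers were lower in Lats2-CKO livers on the ND, with a median of -0.95, and on the HCD, with a median of -1.015. On the ND 3 of them had an unadjusted limma p under 0.05 and on the HCD 5 did (against 8.99% and 2.93% of all genes). Of 5 endothelial markers 4 had an unadjusted limma p under 0.05, with a median of -0.62 on the ND and -0.49 on the HCD, where 4 had such a p too. No marker of either list was called, and their part in the subunit values was not tested. Over both diets together no member was called, while 0.00451% of all genes were, and 4 members, all of complex V, had an unadjusted limma p under 0.05 (against 5.97% of all genes). The smallest of these belonged to Atp5c1, the rotor shaft subunit gamma, at -0.28 ± 0.09 (limma adjusted p = 0.742).

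Complex V held 6 of those 14 members. Its median for Lats2-CKO against WT was -0.18 on the ND, with 13 of 18 members lower. The median level of its members around each gene's median was -0.066 to -0.055 on the 3 Lats2-CKO ND arrays and 0.075 to 0.22 on the 3 WT ND arrays, so the groups did not overlap. Medians of the other complexes on the ND were -0.11 for complex I, -0.22 for complex II, 0.043 for complex III and -0.049 for complex IV. The complex III median changed sign with 1 array left out, to -0.058 without WT ND array 3 and -0.086 without Lats2-CKO ND array 3, and that of complex II was -0.071 without Lats2-CKO ND array 3. That complexes differ was not tested. Over all alternatives the complex V median stayed between -0.27 and -0.13.

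**Figure D5:**
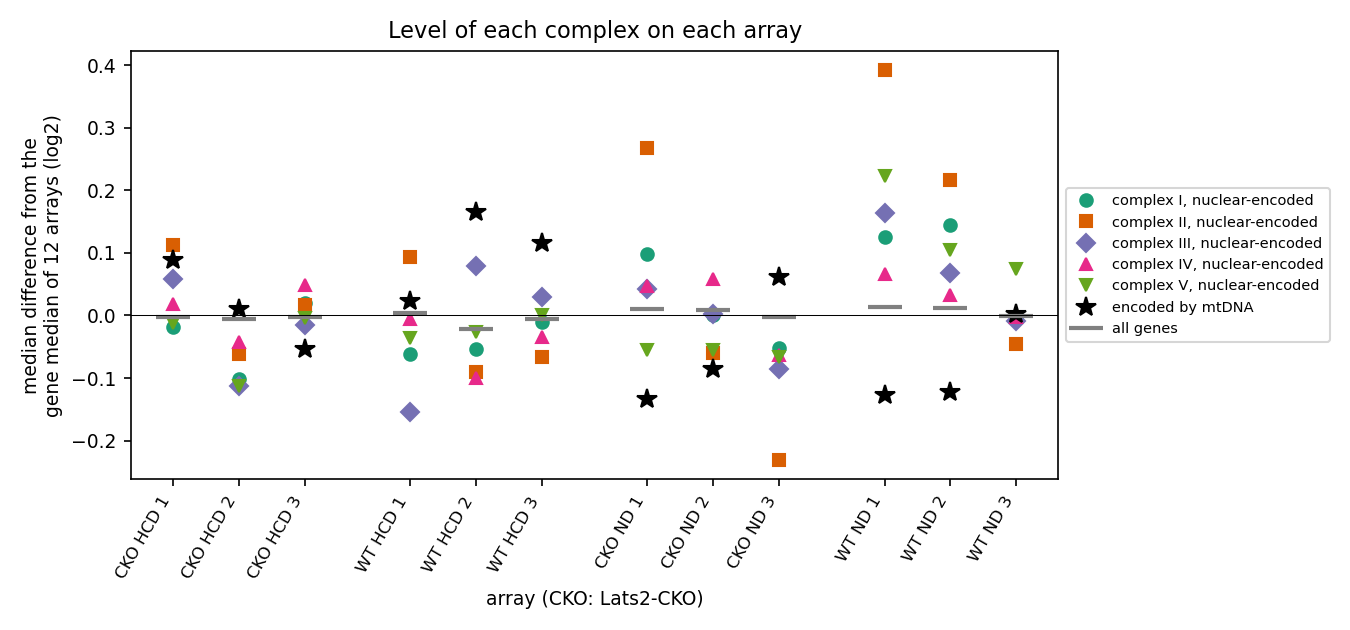
Median difference of the members of each complex from their own median over the 12 arrays (y axis, log2) on each array (x axis), with stars for subunits encoded by mitochondrial DNA and grey bars for all genes. WT ND array 1 is highest for complexes II to V (0.39 for complex II) and WT ND array 2 for complex I (0.14), while the mitochondrially encoded subunits are lowest on arrays 1 and 2 of both ND groups (-0.13 to -0.086).

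The 3 complex V genes with the smallest p on the ND were Atp5j, Atp5g2 and Atp5l, and their promoters are shown because all 3 hold the same 8-base element. It is the palindromic core CGCATGCG of the site for NRF1, a factor named for its action on respiratory chain genes. Sequences are 250 bases before to 50 bases after the gene's start, from RefSeq on GRCm38.p6, 5′ to 3′ on the gene's strand, which is minus for all 3. Capitals mark the NRF1 core and, in Atp5j, also the YY1 motif AAGATGGCG. The windows are chr16:84834927-84835226 for Atp5j, chr15:102670998-102671297 for Atp5g2 and chr9:44920693-44920992 for Atp5l.
Atp5j: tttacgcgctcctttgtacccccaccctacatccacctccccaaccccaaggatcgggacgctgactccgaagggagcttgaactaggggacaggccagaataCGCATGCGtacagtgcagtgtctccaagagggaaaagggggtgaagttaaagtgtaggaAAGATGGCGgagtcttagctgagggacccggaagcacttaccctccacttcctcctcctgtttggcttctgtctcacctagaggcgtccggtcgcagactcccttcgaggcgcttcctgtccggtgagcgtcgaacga
Atp5g2: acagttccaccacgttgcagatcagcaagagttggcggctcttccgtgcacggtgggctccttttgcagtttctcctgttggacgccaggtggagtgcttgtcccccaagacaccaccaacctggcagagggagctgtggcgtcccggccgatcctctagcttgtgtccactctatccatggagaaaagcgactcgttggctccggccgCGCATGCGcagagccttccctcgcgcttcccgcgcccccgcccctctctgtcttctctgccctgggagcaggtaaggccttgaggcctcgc
Atp5l: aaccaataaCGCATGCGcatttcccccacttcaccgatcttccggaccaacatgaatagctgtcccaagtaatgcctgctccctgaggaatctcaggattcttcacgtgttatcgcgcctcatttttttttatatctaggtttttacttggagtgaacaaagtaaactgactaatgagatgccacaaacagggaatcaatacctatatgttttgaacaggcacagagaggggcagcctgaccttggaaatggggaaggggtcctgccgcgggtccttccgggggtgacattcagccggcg
Both strands of every promoter in the table were searched, and 64 of the 81 members had an entry. CGCATGCG was present in 9 of these 64 (14.1%) and in 2.07% of all 27025 promoters. The YY1 motif was in 6 (9.38% against 1.64%), the GABP motif CCGGAAGT in 5 (7.81% against 4.31%) and the ERR alpha motif TCAAGGTCA in 2 (3.12% against 0.47%). None of the motifs contains another, and a match is a description of letters only. Besides the 3 shown, the NRF1 core was found in Atp5k, Cox6a1, Ndufa11, Ndufa8, Uqcr11 and Uqcrc1. Of these, Atp5k and Uqcr11 had higher means in Lats2-CKO than in WT livers on the ND (7.7 against 7.55 and 7.68 against 7.49). Means of Cox6a1, Ndufa11, Ndufa8 and Uqcrc1 were lower. Whether the element bears on the genotype differences was not tested.

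Atp5j encodes a peripheral stalk subunit. It was at 6.03, 5.72 and 5.76 in Lats2-CKO ND livers and at 6.25, 6.31 and 6.07 in WT ND livers. The highest Lats2-CKO array lay just below the lowest WT array, and the difference was -0.37 ± 0.11 (limma adjusted p = 0.28). Atp5l was at 6.22, 6.13 and 6.70 in Lats2-CKO ND livers and at 7.19, 7.21 and 7.0 in WT ND livers. Its difference was -0.78 ± 0.25 (limma adjusted p = 0.327), with -1.03 in the higher array set and -0.30 in the lower one, which held only array 3 of each genotype. Atp5l on the HCD was at 6.10, 6.30 and 6.93 in Lats2-CKO livers and at 6.14, 6.99 and 6.70 in WT livers, so the genotypes overlapped there.

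Atp5g2, the second of the 3 subunit c genes, was at 9.73, 9.29 and 9.64 in Lats2-CKO ND livers and at 10.23, 10.05 and 10.08 in WT ND livers. Its difference was -0.57 ± 0.17 (limma adjusted p = 0.296), and its second probe set gave -0.54. On the HCD it was at 9.76, 10.13 and 9.74 in Lats2-CKO livers and at 10.05, 9.61 and 9.50 in WT livers. The diet difference was 0.32 in Lats2-CKO livers and -0.40 in WT livers. The nearest arrays of the 2 diets were 0.01 apart or less in each genotype.

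The remaining members with the smallest p on the ND lay in complex I. Ndufv3 was at 4.38, 3.86 and 4.10 in Lats2-CKO ND livers and at 4.83, 4.59 and 5.25 in WT ND livers, a difference of -0.78 ± 0.23 (limma adjusted p = 0.3). Ndufb9, an accessory subunit of the membrane arm, was at 10.03, 9.63 and 10.23 in Lats2-CKO ND livers and at 10.48, 10.46 and 10.42 in WT ND livers, a difference of -0.49 ± 0.16 (limma adjusted p = 0.339). In both genes all 3 Lats2-CKO arrays were below all WT arrays. In complex II, Sdhd, which anchors the enzyme in the membrane, was at 9.22, 8.24 and 8.70 in Lats2-CKO ND livers and at 9.37, 9.54 and 8.83 in WT ND livers. These overlapped, and the difference was -0.53 ± 0.24 (limma adjusted p = 0.552). Uqcrh, the hinge protein of complex III, differed by -0.31 ± 0.10 (limma adjusted p = 0.355), and Cox8a of complex IV by -0.34 ± 0.17 (limma adjusted p = 0.618).

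Several subunits exist as tissue-specific isoforms. Ndufa4l2, Cox6b2, Cox8c, Atp5j2 and both pseudogenes had mean values from 2.57 to 3.01, below the 30th percentile of gene means (3.04), and the other 75 members were at or above it. Atp5j2, subunit f of ATP synthase, is listed for its low signal and not as an isoform. Whether its probe set reports the gene was not tested. Cox4i2, the lung isoform, and Cox6a2, the heart and muscle isoform, were at 2.87 to 3.19 and 2.99 to 3.30 over all arrays. Over all arrays the ubiquitous isoform Cox4i1 ranged from 8.38 to 8.96 and the liver isoform Cox6a1 from 11.02 to 11.99. Cox7a1, the heart and muscle isoform, ranged from 3.04 to 4.34 with no split by group. Cox7b2, a Cox7b paralog, was at 3.31, 3.16 and 3.11 in Lats2-CKO HCD livers and at 3.5, 3.59 and 3.29 in Lats2-CKO ND livers, a change of -0.27 ± 0.10 (limma adjusted p = 0.26). Of the subunit c genes, Atp5g3 was at 8.62, 8.73 and 8.88 in Lats2-CKO HCD livers and at 8.63, 8.85 and 8.79 in WT HCD livers, against 8.96, 9.11 and 8.88 in Lats2-CKO ND livers and 9.03, 8.98 and 8.88 in WT ND livers. Its diet change over both genotypes was -0.22 ± 0.07 (limma adjusted p = 0.145).

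A second probe set existed for 9 members. Signs of the diet change over both genotypes matched in 5 of them, and those of the genotype difference on the ND in 6. Disagreement was widest for Atp5d, subunit delta of the ATP synthase rotor, whose brighter probe set gave -0.11 and whose other one gave 0.50 over both genotypes. For Atp5e, subunit epsilon, the genotype difference on the ND was -0.47 on the brighter probe set and 0.23 on the other.

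Subunits encoded by mitochondrial DNA lay on the other side of no change from most nuclear ones in WT livers. Of the 13 such genes, 10 were measured, and all 10 were higher on the HCD in WT livers, with a median of 0.19. In Lats2-CKO livers 9 of 10 were higher, with a median of 0.07. None was called (limma, Benjamini-Hochberg), and 2 of 10 had an unadjusted limma p under 0.05 over both genotypes (against 18% of all genes). The smallest belonged to ND3, a membrane subunit of complex I, at 0.18 ± 0.06 (limma adjusted p = 0.121). The median over both genotypes was 0.16 in arrays of the higher set and 0.011 in those of the lower. Signals of 9 of the 10 were at 12.23 to 13.29, while ND6 ranged from 7.06 to 10.95 with the groups overlapping.

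Genes for assembly of the complexes were mostly lower on the HCD. These companion lists were chosen with earlier results known. Of 14 genes listed as complex I assembly factors, 12 were lower on the HCD over both genotypes (median -0.18), and of 20 complex IV assembly factors 19 were (median -0.15). The 14 include Ndufab1, which is itself a subunit of complex I. Neither list had a called member, and 3 and 4 of their genes had an unadjusted limma p under 0.05, which is 21.4% and 20% against 18% of all genes. Ndufaf3, an assembly factor of complex I, changed by -0.67 ± 0.17 (limma adjusted p = 0.0795), and Cox10, which makes the heme A precursor for complex IV, by -0.75 ± 0.18 (adjusted p = 0.0658). Without WT ND array 3 both were called, at -0.83 for Ndufaf3 (limma adjusted p = 0.00408) and -0.90 for Cox10 (adjusted p = 0.00557), and 7.24% of all genes were. Without both arrays 3 each list had 2 called genes, against 7.06% of all genes.

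Enzymes around the chain held the called genes. Coq8a, a kinase-like protein needed for coenzyme Q synthesis, was at 9.45, 9.15 and 9.09 in Lats2-CKO HCD livers and at 9.15, 8.50 and 9.33 in WT HCD livers, against 7.87, 7.50 and 7.15 in Lats2-CKO ND livers and 8.45, 8.30 and 9.09 in WT ND livers. The Lats2-CKO groups were far apart and the WT groups overlapped. Coq8a rose by 1.72 ± 0.26 in Lats2-CKO livers (limma adjusted p = 0.0327) and by 1.05 ± 0.19 over both genotypes (adjusted p = 0.0369). Both calls were lost with the array set as a block (limma adjusted p = 0.0541 and 0.0691). Of 14 genes for mobile carriers and coenzyme Q synthesis, Hccs, which attaches heme to cytochrome c, fell by 0.49 ± 0.09 (limma adjusted p = 0.0374). Sqor, which passes electrons from sulfide to coenzyme Q, was called among 8 other donors and rose by 0.66 ± 0.12 (limma adjusted p = 0.0403). Of all genes 0.271% were called for diet in Lats2-CKO livers and 1.24% over both genotypes.

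In the tricarboxylic acid cycle 3 of 17 genes were called over both genotypes, against 1.24% of all genes. Fh1, fumarate hydratase, fell by 0.73 ± 0.14 (limma adjusted p = 0.0433) and Dlst, of the oxoglutarate dehydrogenase complex, by 0.34 ± 0.07 (limma adjusted p = 0.0445). Idh2, the mitochondrial NADP-dependent isocitrate dehydrogenase, rose by 0.40 ± 0.08 (limma adjusted p = 0.0407). With 1 array left out at a time, the calls over both genotypes were kept in 1 of 12 cases for Dlst, 2 for Fh1 and Sqor, 3 for Idh2 and Hccs, and 4 for Coq8a. The Coq8a call within Lats2-CKO livers was kept in 7. With the array set as a block the calls of Fh1, Dlst, Idh2, Hccs and Sqor were lost too (limma adjusted p from 0.0655 to 0.0799).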

How the data were processed

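Liver RNA (250 ng per array, per the labels' protocols) was measured on 12 arrays. The deposited values are log2 expression per probe set after RMA in Partek 6.6, per the submitters' processing notes; genome build, RMA settings and probe filters are not given in the sources used here. Number of arrays limits precision. Of 41345 probe sets, 23521 had 1 symbol in the platform table, 1814 several and 16010 none; symbols were updated by gene identifier through a RefSeq GRCm38.p6 table (23328 updated, 193 kept), giving 22180 genes, each by its probe set with the highest mean.

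limma 3.58.1 (lmFit, eBayes; R 4.3.3) was fitted once over 12 arrays with 4 group means and 7 contrasts, with Benjamini-Hochberg adjustment over all genes at 0.05. Errors are SE of changes or SD of 3 arrays. Named members were those called, the 5 with the smallest p per contrast, the leading member per complex, and isoform families. Members, lists, tests and alternatives were chosen with earlier results of these data known; adrenal and brown fat lists, and the fit without both arrays 3, were added after seeing the data. Same-numbered arrays deviated together only weakly (r 0.002 to 0.18 over 18 pairs), so no pairing was used. On data simulated from these arrays for diet in Lats2-CKO livers, 196 of 200 genes changed by 2 (log2) were recovered, with 14 false calls among 22180 genes; changes of the members' size were not simulated.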

Additional observations from a re-analysis of the deposited data

Results flagged for a closer look

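For 2 members the Lats2-CKO arrays lay to one side with the diet and the WT arrays to the opposite side, although the gaps were narrow. The diet groups did not overlap for 19.5% of all genes in Lats2-CKO livers and for 13.8% in WT livers. The share of all genes on opposite sides was not counted, so whether 2 of 81 is many cannot be told. For Atp5g2 the nearest arrays were 0.01 apart or less. For Ndufb9 the nearest Lats2-CKO arrays were at 10.24 (HCD) and 10.23 (ND), and the nearest WT arrays at 10.36 (HCD) and 10.42 (ND). Atp5g2 stood higher on the HCD in Lats2-CKO livers (0.32) and lower in WT livers (-0.40), a difference between the diet changes of 0.72 ± 0.24 (limma interaction, adjusted p = 0.752). Ndufb9 stood higher in Lats2-CKO livers (0.32) and lower in WT livers (-0.27), a difference of 0.58 ± 0.22 (limma interaction, adjusted p = 0.795). Neither difference passed the interaction test.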

How the results depend on the processing

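Of 336 values of 14 results under other settings, 310 stayed on their side of the threshold or moved by less than the spread between arrays. Part of this count was fixed in advance and is no measure of robustness. A median cannot move with another prior, with only the groups compared or with the balanced replicate block. Nor can it move when the array left out lies outside the contrast. The median for diet in Lats2-CKO livers ranged from -0.054 to 0.034 and that for Lats2-CKO against WT on the HCD from -0.017 to 0.07, so neither had a settled sign. Members called for diet in Lats2-CKO livers numbered 1 with only the groups compared, where 265 of 22180 genes were called. The count was 1 with the array set block and no WT ND array 3 (573 genes called). It was 0 in the fit over all arrays (60 genes called). With each array left out it was 0 to 1, the 1 being without WT ND array 3 (468 genes called). For diet in WT livers the count was 2 with the array set block and no WT ND array 3 (374 genes called). Without both arrays 3 (added after seeing the data) it was 1, with 466 genes called. With each array left out it was 0 to 2, the 2 being without WT ND array 3 (516 genes called). Over both genotypes it was 2 with array weights (against 6.18% of all genes) and 0 with the array set block (against 0.194%). It was 2 with the array set block and no WT ND array 3 (against 5.54%) and 4 without both arrays 3 (against 7.06%). With each array left out it was 0 to 3, the 3 being without WT ND array 3 (against 7.24%). The members' median moved to -0.069 for diet in WT livers and to -0.008 over both genotypes within the lower array set, and to 0.07 for Lats2-CKO against WT on the HCD within the higher set. The interaction median was 0.18 within the higher and 0.058 within the lower set, and 0.074 to 0.17 with each array left out, lowest without Lats2-CKO ND array 3. The cause of these moves was not tested, beyond the smaller number of arrays. With the replicate number as a block (replicate block), 1 member was called over both genotypes, Ndufa2 at adjusted p = 0.0422 (limma), and genes called for that contrast numbered 311 against 274. All arrays 1 were in the higher array set and all arrays 3 in the lower one. Arrays 2 were in the lower set on the HCD and in the higher set on the ND. Replicate number and array set therefore overlapped in part, and 9 of 12 arrays correlated best with their own number. The replicate block changed no other call of members. Dim members below 3.04 give changes that are hard to tell from background.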

Other observations

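Other mitochondrial genes were described by count over both genotypes. Of 16 genes for protein import and cristae, 11 were lower on the HCD (as were 12261 of all 22180 genes), with a median of -0.088, and none was called by limma, with 1 at an unadjusted p under 0.05, against 18% of all genes, the share beside which each such count below stands. Of 8 mitochondrial antioxidant genes 5 were lower (median -0.027), none was called by limma and 1 had an unadjusted p under 0.05, Txn2, the mitochondrial thioredoxin, at -0.41 ± 0.13 (limma adjusted p = 0.147). Of 11 genes for adenine nucleotide carriers, uncoupling and the outer membrane, 6 were lower (median -0.02), and 2 had an unadjusted limma p under 0.05 with none called. Slc25a4, an ADP/ATP carrier, differed by 0.40 ± 0.13 (limma adjusted p = 0.15).

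Regulators of mitochondrial biogenesis were split, with 10 of 18 higher on the HCD over both genotypes, 4 (22.2%) at an unadjusted limma p under 0.05 against 18% of all genes, and none called. Without WT ND array 3, 2 were called higher (Ppargc1a and Yy1) and 1 lower (Gabpb1), against 7.24% of all genes. Without both arrays 3, 2 were called higher, against 7.06% of all genes. Ppargc1a, a coactivator of respiratory chain genes, was chosen after its values were seen. It was at 7.46, 7.17 and 7.28 in Lats2-CKO HCD livers and at 7.88, 6.36 and 7.24 in WT HCD livers, against 6.12, 6.22 and 5.93 in Lats2-CKO ND livers and 6.33, 6.14 and 7.91 in WT ND livers. WT ND array 3 alone among the ND arrays lay with the HCD values. The diet difference over both genotypes was 0.79 ± 0.31 (limma adjusted p = 0.218), and 1.07 ± 0.22 without that array (limma adjusted p = 0.02).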
